A study of Mus musculus with 47 samples.

Results

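Interscapular brown adipose tissue (BAT) and inguinal white adipose tissue (IWAT) were compared in mice fed the Control diet, to describe how the depots differed in RNA on that diet. The comparison used 12 of the 47 libraries of the series, 6 from BAT and 6 from IWAT, and every gene in their count tables. The animals were male C57BL/6J mice, an inbred strain, that were 5 weeks old when the diet began and ate it freely for 11 weeks at 23 C, and both depots were taken after a 5 h fast. No genetic change or drug was involved, and each depot is a whole dissected tissue with all its cell types. The libraries were BAT3103, BAT3106, BAT3107, BAT3112, BAT3114 and BAT3115, and IWAT3103, IWAT3106, IWAT3107, IWAT3112, IWAT3114 and IWAT3115, named by depot and animal number, so that the same 6 animal numbers stood in both depots. Libraries were built from 7 to 12 ng of total RNA with the SOLiD SAGE kit, which reads 1 short tag near the 3' end of a transcript, so a value is a number of tags and does not grow with transcript length. Tags were kept when they mapped to a single place among RefSeq genes, so genes with near-identical copies elsewhere may be undercounted.

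Brown adipocytes burn fatty acids and glucose in abundant mitochondria, and uncoupling protein 1 (UCP1) lets protons return across the inner mitochondrial membrane so that the energy is released as heat. Sympathetic nerves drive this through adrenergic receptors and cyclic AMP. White adipocytes store triglyceride in a single large droplet and secrete hormones such as leptin, and inguinal fat can acquire UCP1-positive beige adipocytes under stimulation.

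Library totals were 5252688 to 13117537 tags in BAT and 4887004 to 7094761 in IWAT, and 14342 to 16406 genes were detected per BAT library, against 12690 to 15924 per IWAT library. A count of 0 allows a level of up to 0.226 to 0.583 CPM (the gene's tags scaled to a library total of 1000000) in a BAT library and 0.311 to 0.638 CPM in an IWAT library, taking 3 counts as the limit, which covers counting error only. The libraries of BAT resembled each other more than those of IWAT did. The median Spearman correlation of a library with the others of its depot, across genes, was 0.892 to 0.935 in BAT and 0.648 to 0.871 in IWAT. IWAT3106 and IWAT3115 stood apart, at 0.648 and 0.749, and 18S ribosomal RNA (Rn18s) made up 0.00120% and 0.00192% of their tags, against 0.728% to 1.03% in BAT and 0.0988% to 0.499% in the other IWAT libraries. The biological coefficient of variation over all 6 libraries was 37.4% in BAT and 73.9% in IWAT. The median standard deviation of log2 CPM per gene was 0.337 in BAT and 0.826 in IWAT. In IWAT it was 0.427 without IWAT3106 and IWAT3115. Results are therefore also given without these 2 libraries, and what sets them apart was not tested.

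Of 26608 gene symbols, 10955 passed the filter on low counts. By edgeR's quasi-likelihood test with a Benjamini-Hochberg adjusted p under 0.05 over all genes tested, 1107 genes were higher in BAT (10.1% of those tested) and 1695 were lower (15.5%), 25.6% in all. Against a null of at most a 2-fold difference, 193 genes were higher (1.76%) and 289 were lower (2.64%), 4.4% in all. The CPM values of the 6 BAT and 6 IWAT libraries did not overlap for 1083 genes higher in BAT (9.89%) and 801 genes lower in BAT (7.31%), 17.2% in all. The median log2 fold change over all genes tested was -0.09, with BAT over IWAT in this and every fold change below. Without IWAT3106 and IWAT3115, 1761 genes were higher (15.4%) and 2030 were lower (17.7%), 33.1% in all, and 2320 of the 2802 earlier calls remained, none with a changed sign. The share of calls that were higher in BAT was 39.5%. With library totals as the only scaling it was 22.0% (733 higher and 2597 lower), and the median log2 fold change of all genes was -0.35. It was 44.0% with RLE factors and 40.7% with upper-quartile factors. Limma-voom, another test, gave 51.1% (1437 higher and 1376 lower). With the animal as a replicate block, 875 genes were higher and 1003 were lower. In bulk tissue, fewer cells of a type and less RNA per cell cannot be told apart, and this applies to every gene group that follows. For list counts, the background is the share of all genes tested, 10.1% higher and 15.5% lower. It is 15.4% and 17.7% without IWAT3106 and IWAT3115.

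The depot labels were checked first with Ucp1 and Lep. Ucp1 (chr8:83290348-83298456 on GRCm38) encodes the uncoupling protein. It stood at 1986, 3252 and 4023 CPM (lowest, median and highest) in BAT libraries and at 22.0, 98.4 and 527 CPM in IWAT libraries. Every BAT library was above every IWAT library, and the highest inguinal value was that of IWAT3114. The log2 fold change was 4.10 ± 0.65 (SE, n = 6 per depot; edgeR adjusted p = 0.00163). It was 4.84 without IWAT3114 and 3.77 without IWAT3106 and IWAT3115. Ucp1 was thus detected in all 6 inguinal depots of mice kept at 23 C, over a wide range.

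Lep (chr6:29060221-29073876) encodes leptin, the hormone that reports fat stores to the brain. It stood at 12.7, 20.5 and 64.8 CPM in BAT libraries and at 11.1, 345 and 955 CPM in IWAT libraries. The groups overlapped, because IWAT3106 and IWAT3115 had 11.1 and 22.1 CPM while the other 4 inguinal libraries were all above the BAT libraries. The log2 fold change was -3.71 ± 0.94 (edgeR adjusted p = 0.0131), and without those 2 libraries it was -4.27 (adjusted p = 0.000681). With the animal as a block the call was lost, at -3.40 (adjusted p = 0.180), and likewise with limma-voom, at -2.75 (adjusted p = 0.0730).

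**Figure D1:**
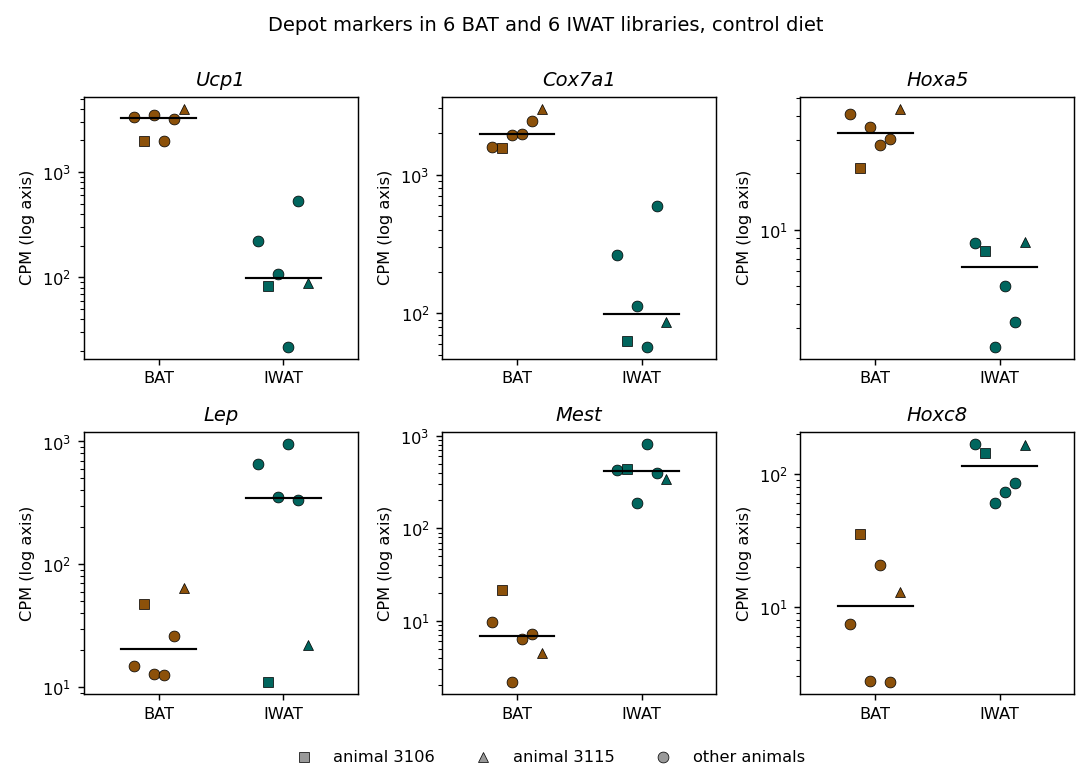
CPM (log axis) of 3 genes higher in BAT (Ucp1, Cox7a1, Hoxa5) and 3 lower in BAT (Lep, Mest, Hoxc8) in each of 6 BAT and 6 IWAT libraries. Points are libraries, lines are medians, and squares and triangles mark the animals of IWAT3106 and IWAT3115. Of these 6 genes, Lep alone overlaps between the depots, through the low IWAT libraries of these 2 animals.

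The 250 bases before the annotated start are shown for Ucp1, for Lep and for Dio2, another gene of heat production, because they hold the proximal promoters of the depot markers and of a gene of the heat program. The sequences are from RefSeq on GRCm38, on the strand of the gene. Capitals mark matches to the motifs searched on both strands, the full cyclic AMP response element TGACGTCA, the C/EBP palindrome TTGCGCAA, the TATA box TATAAA and a direct repeat of AGGTCA spaced by 1 base.
Ucp1 (chr8:83290098-83290347, plus strand): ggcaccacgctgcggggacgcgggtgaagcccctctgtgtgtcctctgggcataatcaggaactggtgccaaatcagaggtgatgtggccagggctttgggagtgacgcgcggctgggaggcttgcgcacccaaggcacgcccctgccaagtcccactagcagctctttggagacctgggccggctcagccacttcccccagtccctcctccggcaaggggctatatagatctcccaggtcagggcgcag
Dio2 (chr12:90739039-90739288, minus strand): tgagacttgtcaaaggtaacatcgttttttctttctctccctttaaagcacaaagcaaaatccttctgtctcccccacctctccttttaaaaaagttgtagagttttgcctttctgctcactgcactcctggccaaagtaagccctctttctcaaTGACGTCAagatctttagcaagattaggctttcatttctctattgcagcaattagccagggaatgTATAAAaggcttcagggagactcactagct
Lep (chr6:29059971-29060220, plus strand): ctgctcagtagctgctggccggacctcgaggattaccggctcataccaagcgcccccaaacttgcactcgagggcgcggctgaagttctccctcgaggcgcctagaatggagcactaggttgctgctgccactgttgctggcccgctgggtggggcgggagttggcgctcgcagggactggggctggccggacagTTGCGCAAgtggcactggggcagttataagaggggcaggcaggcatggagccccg
The Dio2 window held TGACGTCA 95 to 88 bases before the start and TATAAA 30 to 25 bases before it. The Lep window held TTGCGCAA 55 to 48 bases before the start, and the Ucp1 window held none of the 4 motifs. Over all 32851 such windows, TGACGTCA occurred in 1.55%, TTGCGCAA in 0.164%, TATAAA in 12.4% and the direct repeat in 0.0335%. Among 22 thermogenic genes with a window, TGACGTCA occurred in 1 (Dio2) and TATAAA in 4. A match describes these letters only, and the lack of one says nothing of a factor.

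The thermogenic program was higher in BAT almost throughout. Of 30 listed genes, 28 passed the filter, 25 were higher in BAT and 0 lower (background 10.1% higher), and their median log2 fold change was 2.66. For 24 of them every BAT library was above every IWAT library, against 9.89% of all genes tested. Without IWAT3106 and IWAT3115, 26 were higher, with a median of 2.41. Summed over the list, the level was 9831, 14167 and 17448 CPM in BAT libraries and 632, 1535 and 3697 CPM in IWAT libraries.

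Dio2, the deiodinase that activates thyroid hormone inside the cell, had 9.48, 15.2 and 16.0 CPM in BAT libraries and 0.425, 1.21 and 3.39 CPM in IWAT libraries (log2 fold change 3.26 ± 0.43, edgeR adjusted p = 0.000749). Cidea, a lipid droplet protein used as a brown fat marker, had 47.9, 72.1 and 103 CPM in BAT libraries and 1.93, 2.87 and 18.9 CPM in IWAT libraries (3.64 ± 0.59, adjusted p = 0.00173). For both genes the depots were fully apart, and IWAT3114 was the highest inguinal library. Pank1, a pantothenate kinase of coenzyme A synthesis, had 231, 459 and 633 CPM in BAT libraries and 4.04, 11.3 and 60.4 CPM in IWAT libraries (4.34 ± 0.70, adjusted p = 0.00171). Acot11, an acyl-CoA thioesterase induced by cold, had a log2 fold change of 3.98 ± 0.79 (adjusted p = 0.00430). Without IWAT3114 these became 4.46 for Cidea, 4.96 for Pank1 and 4.65 for Acot11. The coactivators that drive mitochondrial and thermogenic genes rose as well, Ppargc1b by 2.93 ± 0.42 (adjusted p = 0.00112) and Ppargc1a by 1.92 ± 0.31 (adjusted p = 0.00173). So did Kcnk3, a potassium channel (2.36 ± 0.31), Otop1, a proton channel (2.14 ± 0.40), and Letmd1, a mitochondrial inner membrane protein (2.89 ± 0.37), with adjusted p = 0.000747, 0.00315 and 0.000747.

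The 3 tested members that were not called were Prdm16, Adcy3 and Epsti1. Prdm16, the transcriptional regulator that holds brown adipocyte identity, differed little by depot. It had 20.1, 27.1 and 40.5 CPM in BAT libraries and 13.9, 18.6 and 23.4 CPM in IWAT libraries, with overlap (0.58 ± 0.24, edgeR adjusted p = 0.0844, and 0.0223 by DESeq2). Adcy3, an adenylyl cyclase, had a log2 fold change of 2.03 (adjusted p = 0.0569), and 1.47 without IWAT3106 and IWAT3115 (adjusted p = 0.00138). Epsti1 had -2.28 (adjusted p = 0.133), and BAT3106 and IWAT3107 had its highest values, 30.1 and 139 CPM. Those are also the libraries with the highest lymph node markers of their depots, given further on. Bmp8b, a secreted factor of brown fat that was too scarce to be tested, had 36 tags in BAT and 0 in IWAT, at least 9.96-fold higher against a limit of 3 counts over the IWAT group.

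**Figure D2:**
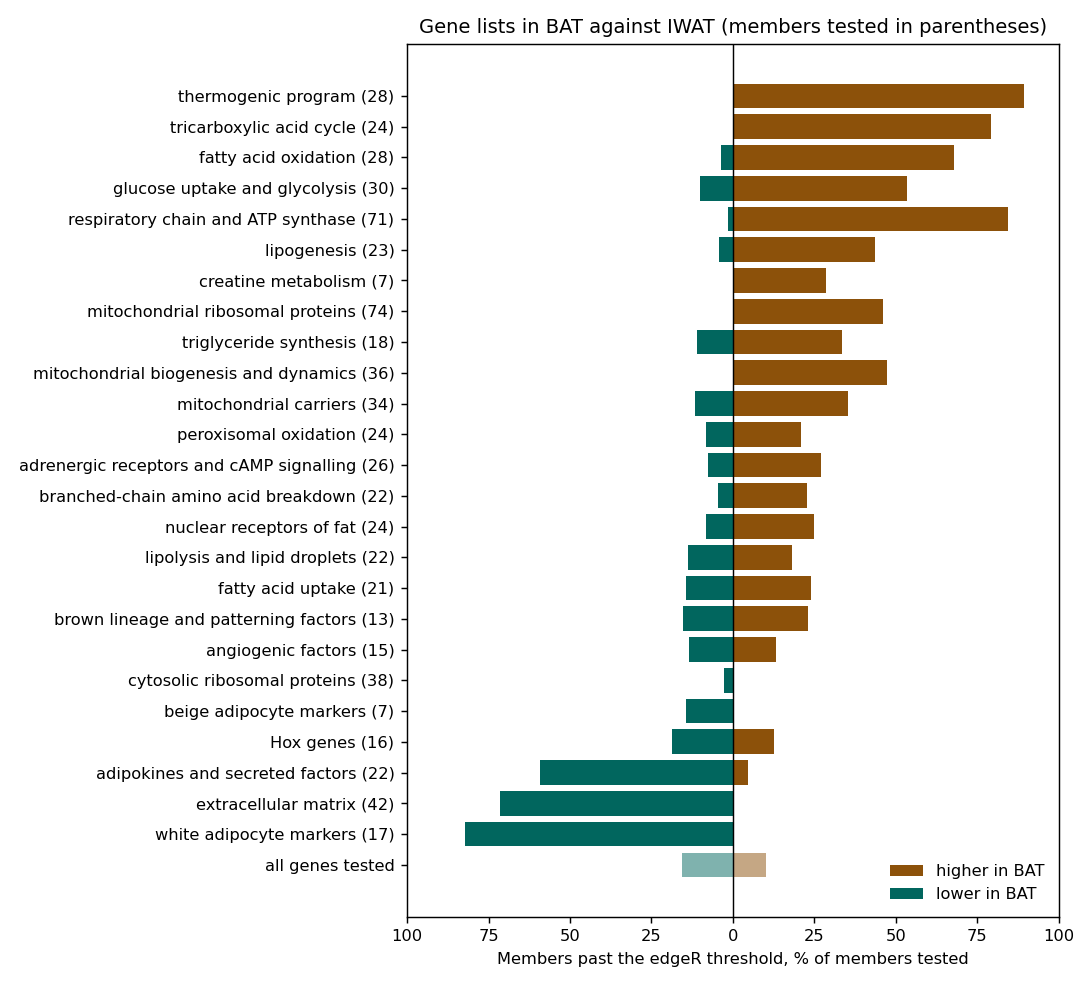
Share of tested members (%) past the edgeR threshold for each gene list, higher in BAT to the right and lower in BAT to the left, in order of the list's median log2 fold change, with all genes tested in pale colours at the bottom. Thermogenic, respiratory chain and tricarboxylic acid cycle genes lead on the right, and white adipocyte markers, extracellular matrix and adipokines on the left.

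Genes of the mitochondrial respiratory chain and ATP synthase gave the most calls of any list. Of 82 nuclear genes, 71 were tested, and 8 were at 0 in all 12 libraries. Of those tested, 60 were higher in BAT and 1 was lower, with a median log2 fold change of 1.72, and 63 were higher without IWAT3106 and IWAT3115. Their summed level was 92384, 121164 and 134499 CPM in BAT libraries and 24757, 40499 and 55780 CPM in IWAT libraries, so no library of one depot reached the other. Atp5b, the catalytic subunit of ATP synthase, had 10622, 12503 and 15683 CPM in BAT libraries and 3001, 4271 and 5704 CPM in IWAT libraries (1.65 ± 0.25, edgeR adjusted p = 0.00130). Complex I genes included Ndufa4, since reassigned to complex IV (3.14 ± 0.35, adjusted p = 0.000409), and Ndufab1 (2.57 ± 0.31, adjusted p = 0.000562). The single lower member was Atpif1, which encodes the inhibitor of ATP synthase running in reverse. It had 58.7, 73.3 and 109 CPM in BAT libraries and 112, 155 and 553 CPM in IWAT libraries without overlap (-1.59 ± 0.40, adjusted p = 0.0131), and -0.80 without IWAT3106 and IWAT3115.

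Several subunits exist as a tissue-restricted and a general form. Cox7a1, the heart and muscle form of a complex IV subunit that brown fat also uses, had 1563, 1950 and 2986 CPM in BAT libraries and 57.6, 99.5 and 590 CPM in IWAT libraries (3.41 ± 0.59, edgeR adjusted p = 0.00224). Its general form Cox7a2 did not pass the filter, with 3 tags in BAT and 1 in IWAT. Cox8b had 2.89 ± 0.37 (adjusted p = 0.000747), while its general form Cox8a had 1.10 ± 0.26 (adjusted p = 0.0100). Their BAT medians were 45.2 CPM for Cox8b and 5795 CPM for Cox8a. The difference between the 2 forms was not itself tested. Cox6a2, the muscle form, had 0.905, 71.6 and 801 CPM in BAT libraries and 0, 3.53 and 30.4 CPM in IWAT libraries with overlap (4.87 ± 1.77, adjusted p = 0.0581). Its highest library was BAT3112, which had the most skeletal muscle markers of all 12, and without the 4 libraries richest in those markers (BAT3106, BAT3112 and BAT3114 and IWAT3114) the log2 fold change was -0.26 (adjusted p = 0.929). In the same subset Cox7a1 stood at 4.27 and Cox8b at 3.55. Cox6a1, the general form, had 1.90 ± 0.39 (adjusted p = 0.00488).

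**Figure D3:**
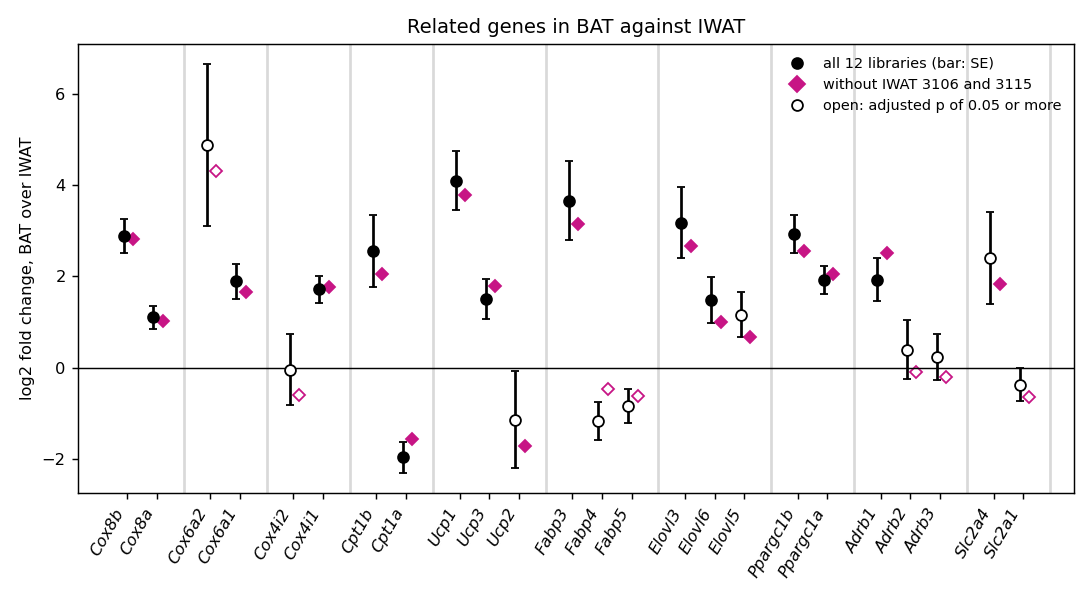
Log2 fold change of BAT over IWAT for related genes, grouped by grey lines, with all 12 libraries (circles, bars are SE) and without IWAT3106 and IWAT3115 (diamonds); open symbols did not pass an adjusted p of 0.05 in edgeR. Cpt1b and Cpt1a lie on opposite sides of 0, and Adrb1 lies above 0 while Adrb3 lies near it.

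Genes of the tricarboxylic acid cycle and of fatty acid oxidation were higher in BAT as well. Of 24 tested cycle and pyruvate dehydrogenase genes, 19 were higher in BAT and 0 lower, with a median log2 fold change of 1.96, and 22 were higher without IWAT3106 and IWAT3115. Of 28 tested oxidation genes, 19 were higher and 1 was lower, with a median of 1.92, and 25 were higher without those libraries. Acadvl, the very-long-chain acyl-CoA dehydrogenase, rose by 2.79 ± 0.43 (edgeR adjusted p = 0.00151), and Hadhb, the beta subunit of the trifunctional protein, by 2.89 ± 0.38 (adjusted p = 0.000747). Fabp3, a fatty acid carrier of oxidative tissues, had a log2 fold change of 3.65 ± 0.86 (adjusted p = 0.00984), and 4.99 without IWAT3114.

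The exception was Cpt1a, the liver form of the carnitine palmitoyltransferase through which long-chain fatty acids enter mitochondria. It had 9.23, 17.8 and 33.9 CPM in BAT libraries and 48.6, 67.0 and 118 CPM in IWAT libraries, without overlap (-1.96 ± 0.34, edgeR adjusted p = 0.00224). Cpt1b, the muscle and brown fat form of the same enzyme, went the other way. It had 1.94, 4.56 and 5.80 CPM in BAT libraries and 0, 0.404 and 2.21 CPM in IWAT libraries (2.56 ± 0.79, adjusted p = 0.0307). That call was lost with the animal block (3.12, adjusted p = 0.0825) and without any 1 of BAT3103, BAT3107 and BAT3115 (adjusted p = 0.0602 to 0.0659), at a level of few tags per library.

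Other mitochondrial genes were higher to a smaller degree. Of 74 tested mitochondrial ribosomal proteins, 34 were higher in BAT and 0 lower, with a median log2 fold change of 1.04, and 52 were higher without IWAT3106 and IWAT3115. Of 36 tested genes of mitochondrial biogenesis and dynamics, 17 were higher and 0 lower, and 11 were higher without BAT3107. Of 34 tested mitochondrial carriers, 12 were higher and 4 lower, and 20 and 6 without IWAT3106 and IWAT3115. Slc25a20, which exchanges acylcarnitine for carnitine, rose by 2.18 ± 0.29 (edgeR adjusted p = 0.000778), and Slc25a42, the coenzyme A carrier, by 2.97 ± 0.45 (adjusted p = 0.00133). Slc25a10, the dicarboxylate carrier, fell by 2.09 on the log2 scale (adjusted p = 0.00739). Ucp3, a relative of Ucp1 known from skeletal muscle, had 81.1, 161 and 315 CPM in BAT libraries and 31.5, 52.6 and 110 CPM in IWAT libraries. Its log2 fold change of 1.51 ± 0.43 (adjusted p = 0.0223) lost its call with the animal block (adjusted p = 0.0621) and without BAT3107 or BAT3114 (adjusted p = 0.0578 and 0.0512).

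Most called genes of glucose use and fat synthesis were higher in BAT. Of 30 tested genes of glucose uptake and glycolysis, 16 were higher in BAT and 3 lower, with a median log2 fold change of 1.78. Without the 4 libraries richest in muscle markers 8 were higher, while the count over all genes fell from 1107 to 516. What muscle contributes to this list was not tested. Hk2, the insulin-regulated hexokinase, had 321, 353 and 401 CPM in BAT libraries and 46.9, 101 and 152 CPM in IWAT libraries (1.83 ± 0.30, edgeR adjusted p = 0.00174). Pfkl, the liver form of phosphofructokinase, rose by 3.09 ± 0.66 (adjusted p = 0.00609), and by 3.70 without IWAT3114. Pfkm, its muscle form, had 3.23 ± 0.96 (adjusted p = 0.0264), and 2.03 (adjusted p = 0.254) without the libraries richest in muscle markers. Its call was also lost with the animal block (adjusted p = 0.0539) and without BAT3112 or BAT3114 (adjusted p = 0.0663 and 0.0541). Slc2a4, the insulin-responsive glucose transporter, was not called although the depots did not overlap, with 64.4, 93.0 and 150 CPM in BAT libraries and 0, 14.2 and 44.2 CPM in IWAT libraries. Its log2 fold change was 2.40 ± 1.00 (adjusted p = 0.0923), and 1.82 without IWAT3106, which was at 0, and IWAT3115 (adjusted p = 0.00888).

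Of 23 tested lipogenic genes, 10 were higher and 1 lower, 15 and 2 without IWAT3106 and IWAT3115, and between 5 and 6 were higher without BAT3103, BAT3107 or BAT3112. Elovl3, a fatty acid elongase induced by cold in brown fat, rose by 3.18 ± 0.77 (edgeR adjusted p = 0.0110), and by 3.78 without IWAT3114. Acss1, the mitochondrial acetyl-CoA synthetase, rose by 2.72 ± 0.35 (adjusted p = 0.000747). Fads1, a fatty acid desaturase, was the lower member (-1.67 ± 0.40, adjusted p = 0.0106). Fasn, fatty acid synthase, had 15765, 20737 and 23727 CPM in BAT libraries and 1023, 6783 and 14013 CPM in IWAT libraries. It did not overlap between depots, yet was not called (1.51 ± 0.58, adjusted p = 0.0722), and passed without IWAT3106 and IWAT3115 (1.00, adjusted p = 0.0346).

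Enzymes that build triglyceride differed by member. Of 18 tested, 6 were higher in BAT and 2 lower. Gyk, glycerol kinase, lets brown fat reuse the glycerol released by lipolysis. It had 117, 142 and 158 CPM in BAT libraries and 11.0, 29.9 and 48.8 CPM in IWAT libraries (2.20 ± 0.35, edgeR adjusted p = 0.00171). Gpd1 and Gpd2, the cytosolic and mitochondrial glycerol-3-phosphate dehydrogenases that pass electrons to the respiratory chain as a shuttle, had 2.38 ± 0.63 (adjusted p = 0.0165) and 2.29 ± 0.42 (adjusted p = 0.00282). The lower members were Mogat2, a monoacylglycerol acyltransferase (-2.37 ± 0.45, adjusted p = 0.00366), and Agpat9, a glycerol-3-phosphate acyltransferase (-1.97 ± 0.35, adjusted p = 0.00248).

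Lipid droplet proteins also differed by member. Plin5, the perilipin of oxidative tissues, had 78.0, 123 and 156 CPM in BAT libraries and 1.49, 9.70 and 50.1 CPM in IWAT libraries (2.75 ± 0.67, edgeR adjusted p = 0.0114, and 3.43 without IWAT3114). Plin4, found mainly in white adipocytes, had 375, 598 and 703 CPM in BAT libraries and 1404, 2299 and 3322 CPM in IWAT libraries (-1.97 ± 0.27, adjusted p = 0.000844). Neither gene overlapped between depots. Pnpla2, the triglyceride lipase, was not called (1.27 ± 0.92, adjusted p = 0.321). IWAT3106 and IWAT3115 had 6.81 and 21.8 CPM of it, against an inguinal median of 1270 CPM, and without them the log2 fold change was 0.70 (adjusted p = 0.0351). Acsl5, a fatty acyl-CoA synthetase, rose by 2.75 ± 0.32 (adjusted p = 0.000489). Of 22 tested genes of branched-chain amino acid breakdown, 5 were higher and 1 lower, and 12 and 1 without IWAT3106 and IWAT3115. The lower one was Bcat1, the cytosolic transaminase (-3.57 ± 0.38, adjusted p = 0.000398).

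Of 26 tested genes from adrenergic receptors to cyclic AMP signalling, 7 were higher in BAT and 2 lower, with a median log2 fold change of 0.49. Adrb3, the receptor through which the sympathetic signal reaches adipocytes, did not differ beyond its spread. It had 288, 315 and 522 CPM in BAT libraries and 38.3, 280 and 638 CPM in IWAT libraries (0.23 ± 0.51, edgeR adjusted p = 0.770), and -0.21 without IWAT3106 and IWAT3115. Adrb1 had 4.67, 14.5 and 21.6 CPM in BAT libraries and 1.35, 3.45 and 7.56 CPM in IWAT libraries with slight overlap (1.93 ± 0.47, adjusted p = 0.0119), and Adra1a, an alpha-1 receptor, had 1.73 ± 0.45 (adjusted p = 0.0146). The smallest adjusted p-values of the list belonged to genes that degrade the second messenger. The phosphodiesterase Pde4d had a log2 fold change of 3.35 ± 0.65 (adjusted p = 0.00386), and Pde4a had 2.28 ± 0.48 (adjusted p = 0.00545). The lower members were Adcy5, an adenylyl cyclase, and Prkar1b, a regulatory subunit of protein kinase A, and both lost their calls with the animal block (adjusted p = 0.102 and 0.0905). Prkar1b also lost its call without any 1 of BAT3103, BAT3107, BAT3112, BAT3114, BAT3115 and IWAT3115, and Adcy5 without any 1 of the same 5 BAT libraries or IWAT3112.

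Among nuclear receptors, 6 of 24 tested were higher in BAT and 2 lower. Ppara, which switches on fatty acid oxidation, had 275, 456 and 549 CPM in BAT libraries and 19.7, 33.6 and 120 CPM in IWAT libraries (3.02 ± 0.49, edgeR adjusted p = 0.00174). The estrogen-related receptors Esrra and Esrrg, regulators of mitochondrial genes, had 2.09 ± 0.37 (adjusted p = 0.00260) and 2.39 ± 0.58 (adjusted p = 0.0115). Pparg, the regulator shared by all adipocytes, had 412, 495 and 841 CPM in BAT libraries and 182, 483 and 4574 CPM in IWAT libraries. Its medians were close and the inguinal maximum was IWAT3106, so that the log2 fold change was -1.11 (adjusted p = 0.234) with all libraries and 0.57 (adjusted p = 0.173) without IWAT3106 and IWAT3115. Nr2f2, an orphan receptor, fell by 1.52 on the log2 scale (adjusted p = 0.00989).

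White adipocyte markers were lower in BAT. Of 24 listed genes, 17 were tested, 14 were lower and 0 higher (background 15.5% lower), with a median log2 fold change of -2.97, and 16 were lower without IWAT3106 and IWAT3115. Mest, an imprinted gene linked to fat expansion, had 2.18, 6.80 and 21.5 CPM in BAT libraries and 189, 412 and 817 CPM in IWAT libraries (-5.65 ± 0.58, edgeR adjusted p = 0.000321). Dpt, dermatopontin, had 40.0, 51.0 and 103 CPM in BAT libraries and 550, 814 and 2081 CPM in IWAT libraries (-4.03 ± 0.43, adjusted p = 0.000397). Both genes were fully apart, and BAT3106 was the highest brown library for each. Sfrp5, a secreted Wnt antagonist, had -3.71 ± 0.94 (adjusted p = 0.0133, and -4.42 without BAT3112), and Npr3, the natriuretic peptide clearance receptor, had -3.32 ± 0.45 (adjusted p = 0.000839). Klhl13, listed as a marker of beige adipocytes, was also lower in BAT (-2.47 ± 0.42, adjusted p = 0.00216). It was the 1 call among 7 tested beige markers, a share near the 15.5% of all genes tested. Without IWAT3106 and IWAT3115, 3 of 8 beige markers were lower, against 17.7% of all genes.

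Secreted factors followed the white markers, in part because the lists share Lep, Retn and Sfrp5. Of 22 tested, 13 were lower in BAT and 1 higher, with a median log2 fold change of -1.80, and 12 and 3 without IWAT3106 and IWAT3115. Adipoq, which encodes adiponectin, had 1762, 2169 and 2467 CPM in BAT libraries and 3703, 6343 and 16062 CPM in IWAT libraries (-2.02 ± 0.38, edgeR adjusted p = 0.00324), and -1.34 without IWAT3106 and IWAT3115, which were its highest. Igf1 had 16.4, 19.5 and 75.6 CPM in BAT libraries and 121, 148 and 324 CPM in IWAT libraries (-2.69 ± 0.45, adjusted p = 0.00199). Neither hormone overlapped between depots. Fgf10, a growth factor for adipocyte precursors, had -3.78 ± 0.50 (adjusted p = 0.000747), and -4.48 without BAT3106. Retn, which encodes resistin in mice, had -2.97 ± 0.80 (adjusted p = 0.0173), and -4.02 without BAT3106. The 1 higher member was Ptgds, a prostaglandin D2 synthase, with 8.32, 12.4 and 34.7 CPM in BAT libraries and 0, 0.236 and 2.28 CPM in IWAT libraries (4.52 ± 0.76, adjusted p = 0.00204, and 5.64 without IWAT3107).

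A few developmental genes differed by depot, on lists with few tested members. Of 26 genes listed for brown precursors and the dorsal trunk, only 13 passed the filter. Of these, 3 were higher in BAT (Zic1, Ebf2 and Pdk4) and 2 lower (Meox1 and Meox2), against 10.1% and 15.5% of all genes tested. Without IWAT3106 and IWAT3115 the counts were 4 and 1 of 14, against 15.4% and 17.7% of all genes. Zic1, a zinc finger factor of dorsal tissues, had 2.48, 7.92 and 12.8 CPM in BAT libraries and was at 0 in 5 of 6 IWAT libraries. In total it had 372 tags in BAT and 2 in IWAT, a ratio of 154 between the pooled CPM values (exact 95% interval 42.5 to 1280, counting error only), with edgeR adjusted p = 0.000407. Lhx8, also listed as a brown fat marker, did not pass the filter and leaned the other way, with 35 tags in BAT and 69 in IWAT. It had 0.435, 0.502 and 1.99 CPM in BAT libraries and 0.442, 1.79 and 3.07 CPM in IWAT libraries. Myf5, the myogenic factor expressed in the precursors of brown fat and muscle, had too few tags to be tested. It had 25 tags in BAT3106, 35 in BAT3112 and 10 in BAT3114, and 0 in the other 3 BAT libraries and in all 6 IWAT libraries. Those are the 3 BAT libraries with the most skeletal muscle markers, given further on. Ebf2, a selector of brown fat genes, rose by 1.16 ± 0.33 (adjusted p = 0.0210), and missed the threshold without BAT3115 (0.98, adjusted p = 0.0526). Pdk4, the kinase that closes pyruvate dehydrogenase, had a log2 fold change of 2.74 ± 0.46 (adjusted p = 0.00209). It is a metabolic enzyme and not a developmental factor, though the list counts it. Meox1 and Meox2 had -1.49 (adjusted p = 0.0245) and -1.38 (adjusted p = 0.0368), and both lost their calls with the animal block (adjusted p = 0.0668 and 0.158). Meox1 also lost its call without BAT3103, BAT3112, BAT3114 or IWAT3115, and Meox2 without any BAT library or without IWAT3106 or IWAT3115.

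Hox genes encode position along the body axis. Of 39, 16 were tested, 2 were higher in BAT and 3 lower, shares near the 10.1% and 15.5% of all genes tested. Without IWAT3106 and IWAT3115, 3 of 19 were higher and 8 lower, against 15.4% and 17.7% of all genes. Hoxa5 had 21.2, 32.5 and 44.0 CPM in BAT libraries and 2.39, 6.33 and 8.60 CPM in IWAT libraries (2.50 ± 0.36, edgeR adjusted p = 0.00107). Hoxa4 had 10.2, 23.5 and 30.4 CPM in BAT libraries and 0, 2.09 and 7.66 CPM in IWAT libraries (2.90 ± 0.69, adjusted p = 0.00977). These lower-numbered genes of the Hoxa cluster, which act toward the front of the body, were above in every brown library. Hoxc8 had 2.72, 10.1 and 35.2 CPM in BAT libraries and 60.5, 114 and 168 CPM in IWAT libraries (-3.08 ± 0.62, adjusted p = 0.00446). Hoxa10 had 0, 0.0905 and 8.80 CPM in BAT libraries and 11.5, 23.6 and 37.9 CPM in IWAT libraries (-3.92 ± 1.17, adjusted p = 0.0268). Both were below in every brown library, with BAT3106 the highest of them. Without BAT3106 the log2 fold change of Hoxa10 was -7.99, and its call was lost without BAT3107, BAT3112, BAT3114 or BAT3115 (adjusted p = 0.0517 to 0.0582). Hoxb3 was lower as well (-1.42 ± 0.39, adjusted p = 0.0184), a call lost with the animal block (adjusted p = 0.0610).

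**Figure D4:**
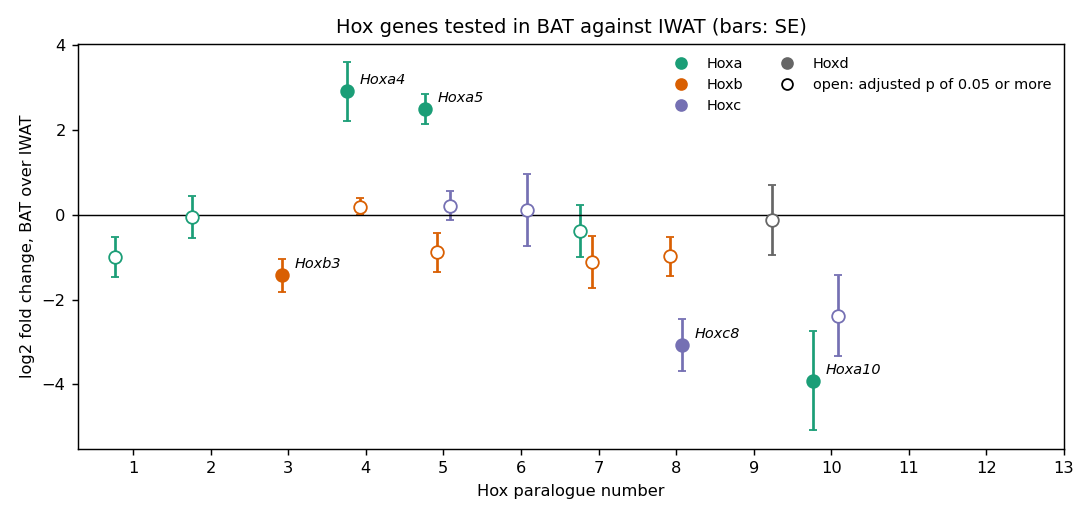
Log2 fold change of BAT over IWAT (bars are SE) for the 16 Hox genes tested, against their paralogue number, with colour for the cluster; open symbols did not pass an adjusted p of 0.05 in edgeR. Hoxa4 and Hoxa5 lie above 0, and Hoxb3, Hoxc8 and Hoxa10 below it.

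Extracellular matrix genes were lower in BAT. Of 42 tested, 30 were lower and 0 higher, with a median log2 fold change of -1.81, and 32 were lower without IWAT3106 and IWAT3115. Their summed level was 2938, 3165 and 3804 CPM in BAT libraries and 7100, 11749 and 23832 CPM in IWAT libraries. Col3a1, a fibrillar collagen, had 88.9, 136 and 244 CPM in BAT libraries and 611, 1192 and 2607 CPM in IWAT libraries (-3.20 ± 0.41, edgeR adjusted p = 0.000747). Col15a1, a basement membrane collagen, had -4.05 ± 0.64 (adjusted p = 0.00163), and -3.39 without IWAT3106. Markers of fibroblasts and adipocyte precursors were also lower, 8 of 13 tested, with a median log2 fold change of -1.77. Without IWAT3106 and IWAT3115, 6 were lower, with a median of -0.84. Summed levels of these markers were 358 to 649 CPM in BAT libraries and 775 to 3044 CPM in IWAT libraries. The highest sums were those of IWAT3106 and IWAT3115, at 3044 and 2479 CPM. How much of the matrix difference goes with these cells was not tested.

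The largest folds, by a fixed rule with no overlap between depots, included genes outside the lists. Above were Mmd2, Zic1, Lgr6, Rspo4, Kng2, Txlnb, Cend1, Ptgds, Myo5b and Me3. Mmd2 had 388 tags in BAT and 2 in IWAT, a ratio of 161 between the pooled CPM values (exact 95% interval 44.3 to 1335, counting error only). Rspo4, an R-spondin ligand, and Lgr6, a receptor for R-spondins, were both among them. Lgr6 had 12.2, 26.2 and 45.8 CPM in BAT libraries and 0, 0.314 and 1.03 CPM in IWAT libraries (6.04 ± 0.61, edgeR adjusted p = 0.000308). Rspo4 had 7.90, 13.9 and 15.7 CPM in BAT libraries and 0, 0.104 and 0.737 CPM in IWAT libraries (5.76 ± 0.67, adjusted p = 0.000489, and 6.61 without IWAT3114). Each was close to absent from inguinal fat. Me3, the mitochondrial NADP-dependent malic enzyme, rose by 4.36 ± 0.91 (adjusted p = 0.00543), and by 5.99 without IWAT3114. Txlnb, a taxilin known from muscle, was highest in BAT3112 at 122 CPM, and its log2 fold change of 4.91 was 4.16 without that library and 5.93 without IWAT3114.

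Below were Folh1, Slc5a7, Mest, Klf14, Slc2a13, Fam110c, Bmp3, Mmp12, Lbp and Ankrd29. Lbp, the lipopolysaccharide-binding protein, had 6.88, 13.1 and 19.5 CPM in BAT libraries and 157, 287 and 503 CPM in IWAT libraries (-4.48 ± 0.42, edgeR adjusted p = 0.000308). Bmp3, a ligand of the bone morphogenetic protein family, had 0.145, 0.479 and 1.43 CPM in BAT libraries and 8.51, 20.7 and 27.2 CPM in IWAT libraries (-4.89 ± 0.54, adjusted p = 0.000407). Klf14, an imprinted transcription factor gene of fat, had -5.48 ± 0.79 (adjusted p = 0.00107), and -7.01 without BAT3106. IWAT3106 was the highest inguinal library for 9 of these 10 genes, all but Mest. That count describes genes chosen for large folds, and no share of all genes is set beside it. Folh1, a glutamate carboxypeptidase, had a log2 fold change of -6.57 with all libraries and -4.49 without IWAT3106 and IWAT3115. Slc5a7, a choline transporter, had -6.24 and -4.28, and Mmp12, a macrophage elastase, had -4.49 and -2.12, while Mest and Lbp without those libraries stood at -5.71 and -4.09. In absolute level, the largest excesses in BAT included Atp5b, Cox4i1, Gpd1, Acaa2 and Acly, and the largest deficits included Cav1, Car3, B2m and Adipoq. Acly, ATP citrate lyase, missed the threshold with the animal block (1.33, adjusted p = 0.0509), as did Cav1, caveolin of the adipocyte surface (-1.98, adjusted p = 0.0648).

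Markers of other tissues were also counted in the depots, unevenly across libraries, and where their tags came from was not tested. Summed skeletal muscle markers were 38766 CPM in BAT3112, 19346 CPM in BAT3114 and 8162 CPM in BAT3106, 487 to 640 CPM in the other BAT libraries, and 129 to 4111 CPM in IWAT libraries with IWAT3114 the highest. Of 19 tested muscle markers, 3 were called higher in BAT, 18 without IWAT3114 and 1 of 22 without IWAT3106 and IWAT3115. Without BAT3106, BAT3112 and BAT3114 and IWAT3114 together, 1 was called. In that smaller set of 3 BAT and 5 IWAT libraries, 516 of 11486 genes tested were higher in BAT and 710 lower. With all libraries the counts were 1107 and 1695 of 10955. In the smaller set 23 thermogenic members were higher with a median log2 fold change of 3.42, and 39 respiratory chain members and 12 mitochondrial ribosomal proteins were higher. The counts of several shorter lists were smaller there too, with 4 lipogenic, 4 adrenergic, 2 nuclear receptor and 7 carrier genes higher and 8 secreted factors and 22 matrix genes lower. List counts of this set stand beside its own smaller shares of all genes, not beside the 10.1% and 15.5% of the main fit. Ucp1 stood at 5.17 there (edgeR adjusted p = 0.00628). IWAT3114 was the highest inguinal library for 20 of 28 thermogenic and 41 of 71 respiratory chain members, against 13.3% of all genes tested.

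BAT3106 was the lowest brown library for 20 of 28 thermogenic members. The same held for 40 of 71 respiratory chain members and 34 of 74 mitochondrial ribosomal proteins, but for 1 of 17 white adipocyte markers. The share of all genes for which it was lowest is not given here. BAT3106 was the highest brown library for 24 of 42 matrix members, against 20.7% of all genes tested. It also had the most lymph node markers of the brown libraries (762 CPM, against 9.30 to 18.9 CPM) and the most hepatocyte markers (5167 CPM, against 147 to 540 CPM). Hepatocyte markers summed to a median of 423 CPM over BAT libraries and to 1501, 3140 and 15551 CPM in IWAT libraries. Of 8 tested, 1 (Trf) was called lower in BAT, against 15.5% of all genes tested. Trf held much of the sum, with medians of 337 CPM in BAT and 1937 CPM in IWAT. Alb had medians of 54.0 and 770 CPM, and Ttr 1.01 and 4.13 CPM. Whether the Trf tags came from liver was not tested. In IWAT, lymph node markers reached 3289 CPM in IWAT3107 and 21.0 to 86.5 CPM in the other libraries. Macrophage markers were lower in BAT for 10 of 17 tested, at 130 to 678 CPM in BAT libraries and 494 to 2268 CPM in IWAT libraries, and 6 of 17 without IWAT3107 or without BAT3103, BAT3112, BAT3114 or BAT3115. Of 14 endothelial markers 1 was lower, and 1 was higher and 5 lower without IWAT3106 and IWAT3115. Without BAT3106 and IWAT3107, 927 genes were higher in BAT and 1694 lower, and 23 thermogenic members were higher. The part of other cell types in the remaining differences was not tested.

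**Figure D5:**
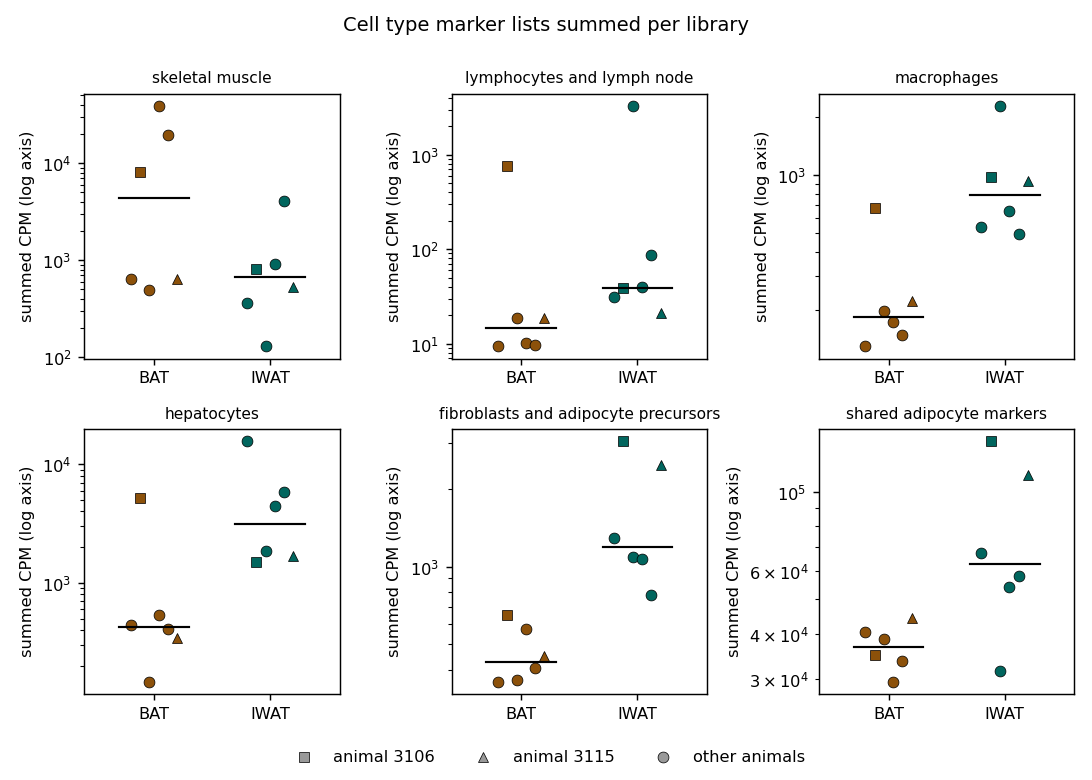
Summed CPM (log axis) of 6 marker lists in each of 6 BAT and 6 IWAT libraries, with lines for medians and squares and triangles for the animals of IWAT3106 and IWAT3115. Muscle markers vary widely within BAT, and lymph node markers are high in BAT3106 and IWAT3107.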

How the data were processed

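The authors deposited raw tag counts per gene symbol and library, whole numbers with no normalization, in 1 table per tissue. Per the labels' protocols, RNA came from a Trizol preparation and uniquely mapping tags were counted. Neither an aligner nor a counter was given in the sources used here. BAT and IWAT tables were joined by symbol, and 8207 symbols were at 0 in all 12 libraries. Libraries were scaled with 1 joint set of TMM factors and filtered with filterByExpr (minimum count 10), which kept 99.5% of the counts. The model had depot as its only term, and BAT over IWAT was tested by quasi-likelihood in edgeR 4.0.16 (limma 3.58.1, R 4.3.3). Each SE was worked back from the fold change and its F value. A second test used a null of 2-fold. The code was tested on simulated data. CPM values, limits for a count of 0 and pooled ratios use the TMM-scaled totals. Tag counts include duplicates of amplification, so intervals cover counting error only.

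The members and gene lists were chosen with earlier results of these data known. Named were Ucp1 and Lep, the 10 largest folds and 10 largest CPM differences in each direction (at least 20 mean counts in the higher depot and no overlap for the folds, leaving out predicted genes), the list members with the smallest p, members against their list, and fixed gene pairs. Of the 287 genes so chosen the text describes those that its comparisons turn on, a choice made with their values seen.

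The labels give the same animal numbers in both depots and 6 animals per diet, so same-numbered libraries were taken as pairs from 1 animal. The correlation of their deviations from the depot means averaged 0.0591 (-0.151 to 0.321), and 2 of 6 animals correlated best with their own number. The labels do not give an extraction or sequencing batch for these libraries. Each animal gave 1 library per depot. The main fit did not pair them, so its p-values measure the spread between libraries within depots, pooled over both depots. Alternatives were DESeq2 1.42.0, limma-voom, other scalings and filters, thinning to 4887004 tags, the animal block and libraries left out. Leaving out 3 abundant genes, the libraries rich in muscle markers or those rich in lymph node markers was chosen after seeing the data. Sequences and coordinates are those of RefSeq genes on GRCm38, the assembly the submitters' processing notes name.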

Additional observations from a re-analysis of the deposited data

Results flagged for a closer look

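Among 46 groups of 6 libraries looked at, 13 held a library far from the others of its depot by Dixon's criterion. The limit used flags about 1 in 20 groups when values are normally spread and groups are independent. Summed CPM values are skewed and the groups share libraries, so the 13 cannot be set against that rate. BAT3106 accounted for 4 of these, with summed marker levels of 762 CPM for lymph node, 678 CPM for macrophages, 15.0 CPM for keratinocytes and 5167 CPM for hepatocytes. IWAT3107 had 3289 CPM for lymph node and 2268 CPM for macrophages. IWAT3114 had 4111 CPM for skeletal muscle, and the uncharacterised gene LOC100503984 took 0.930% of its tags, against 0.407% to 0.560% in the other IWAT libraries. BAT3112 had 260 CPM for nerve, IWAT3103 had 15551 CPM for hepatocytes and IWAT3112 had 15.2 CPM for mesothelium. In BAT3114, LOC100503946 took 3.17% of the tags, against 9.05% to 11.9% in the other BAT libraries. IWAT3112 had the smallest total of its depot, 4887004 tags.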

How the results depend on the processing

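Counts of genes moved with the libraries used. Leaving out each library in turn gave 804 to 1263 genes higher and 1134 to 1873 lower, and past the 2-fold null 94 to 338 higher (338 without IWAT3114) and 117 to 604 lower (604 without BAT3106). Library totals alone gave 733 higher and 2597 lower, and 125 and 459 past the 2-fold null. Limma-voom gave 119 and 90 past it, and DESeq2 gave 186 lower. Without IWAT3106 and IWAT3115, 1761 were higher. Without the 4 muscle-rich libraries the counts were 516 and 710, and 121 and 178 past the 2-fold null, and without BAT3106 and IWAT3107, 564 were lower past it. Pairing the depots by animal, as a replicate block, gave 1003 lower genes and 1809 of the 2802 calls.

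Ucp1 kept its direction and call in all settings run, at 3.89 to 4.84 with 1 library left out. Lep lost its call with the replicate block (-3.40), limma-voom (-2.75) and without the muscle-rich libraries (-3.69), and stood at -4.09 to -3.20 with 1 library left out. Of the other named genes, 10 lost their calls under the block and 1 gained one. Signs turned for 3 uncalled genes. Adrb3 was -0.11 with library totals alone, -0.21 without IWAT3106 and IWAT3115, -0.39 without IWAT3106, IWAT3107 and IWAT3115 and -0.0051 to 0.55 with 1 library left out (-0.0051 without IWAT3106). Pparg was 0.57 without IWAT3106 and IWAT3115, 0.37 without IWAT3106, IWAT3107 and IWAT3115 and -1.29 to 0.080 with 1 library left out (0.080 without IWAT3106), and Cox6a2 was -0.26 without the muscle-rich libraries. The cause was not tested. Genes under about 1 CPM rest on few tags per library.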

Other observations

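Cytosolic ribosomal proteins gave 0 higher and 1 lower member in BAT among 38 tested by edgeR, with a median log2 fold change of -0.35, and 8 lower members without IWAT3106 and IWAT3115 or with library totals as the only scaling. Another 28 of the 76 listed were at 0 in all 12 libraries, so that list rests on the members the mapping could count. Of 24 tested peroxisomal genes, 5 were higher and 2 lower. Abcd2, a peroxisomal importer of very-long-chain fatty acids, had 115, 141 and 224 CPM in BAT libraries and 329, 560 and 2082 CPM in IWAT libraries without overlap (-2.62 ± 0.46, adjusted p = 0.00230), while Ehhadh, the peroxisomal bifunctional enzyme, was higher in BAT (1.75, adjusted p = 0.00319).

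Among angiogenic factors, 2 of 15 tested were higher in BAT and 2 lower, shares near the 10.1% and 15.5% of all genes tested. Without IWAT3106 and IWAT3115 the counts were 4 and 3 of 16, against 15.4% and 17.7% of all genes. Figf, the lymphatic growth factor VEGF-D, had 6.53, 9.59 and 14.4 CPM in BAT libraries and 29.9, 51.6 and 198 CPM in IWAT libraries (-3.07 ± 0.49, edgeR adjusted p = 0.00161), and Nrp2, a receptor for such factors, had 12.42, 32.3 and 41.4 CPM in BAT libraries and 4.74, 8.71 and 12.38 CPM in IWAT libraries (1.78 ± 0.34, adjusted p = 0.00360). Neither gene overlapped between depots. S100b, a calcium-binding protein of glia that brown adipocytes also make, had 53.6, 71.6 and 117 CPM in BAT libraries and 9.24, 17.6 and 31.4 CPM in IWAT libraries (2.01 ± 0.34, adjusted p = 0.00206), and was the 1 call among 5 tested Schwann cell and nerve markers, with 1 higher and 1 lower of 7 without IWAT3106 and IWAT3115.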
